A study of Mus musculus with 49 samples.

Results

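The difference between the inguinal and the epididymal fat depot was compared between 129S1/SvImJ and C57BL/6 mice in 17 RNA-seq libraries of white adipose tissue, of 49 samples in the whole series. The quantity described is the strain by depot interaction, which is the depot difference (iWAT minus eWAT) in 129S1/SvImJ minus the depot difference in C57BL/6. It equals the strain difference (129S1/SvImJ minus C57BL/6) in iWAT minus the strain difference in eWAT. A gene with a positive interaction is therefore higher in iWAT relative to eWAT in 129S1/SvImJ than it is in C57BL/6. The libraries were chosen by their labels: 4 of 129S1/SvImJ inguinal white adipose tissue (iWAT), 4 of 129S1/SvImJ epididymal white adipose tissue (eWAT), 4 of C57BL/6 iWAT and 5 of C57BL/6 eWAT. The mice of every group ate the same control low fat diet, labelled 12w without saying whether this counts diet or age, and none of these groups received a drug. Of 22869 gene symbols, 12555 had a mean score of 20 or more in at least 1 group and were tested.

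White fat stores triglyceride in adipocytes that share the tissue with endothelial cells, macrophages, fibroblast-like progenitors, nerves and, in visceral depots, a mesothelial covering. Epididymal fat is a visceral depot of the abdominal cavity, and inguinal fat lies under the skin, encloses a lymph node and can take on brown-like, heat-producing adipocytes. Both inbred strains are widely used in metabolic research, and 129 strains are known to form brown-like adipocytes more readily than C57BL/6.

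All values are scores that the authors had normalized so that every library shares the same highest value, so the sequencing depth behind them is unknown. Transcripts that were not detected stand at a floor of 1. Scores were coarser in C57BL/6 iWAT than in the other 13 libraries, with 467 to 679 distinct values against 1474 to 1758, and with 32.1% to 37.7% of transcripts at the floor against 22.7% to 26.6%. The strain-marking genes Hal (271 to 760 in 129S1/SvImJ, 1 to 11 in C57BL/6) and Trim12a (1 to 2 in 129S1/SvImJ, 68 to 154 in C57BL/6) separated the strains in all 17 libraries. Both were chosen with earlier results of these data known, so this is no independent check of the strain labels. The mesothelial gene Upk3b (1 to 5 in iWAT, 472 to 1079 in eWAT) separated the depots, and the adipocyte gene Adipoq lay between 14713 and 25245 throughout. The summed score of 26 lymphocyte genes was 12818, 155, 256 and 5086 in 129S1/SvImJ iWAT, 146 to 238 in 129S1/SvImJ eWAT, 358, 333, 174 and 5659 in C57BL/6 iWAT and 171 to 360 in C57BL/6 eWAT. The 25 skeletal muscle genes summed to 32581 in C57BL/6 eWAT replicate 3, to 676 to 1702 in the other 4 of that group, and to 9091 in 129S1/SvImJ iWAT replicate 1. Of the epididymal markers, Lcn5 stood at the floor in every library. The 4 groups carry separate runs of library numbers, so group and library series cannot be told apart. Nothing in the labels ties each replicate to its own animal, so the tests speak of the spread among these libraries, which may be technical.

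**Figure D1:**
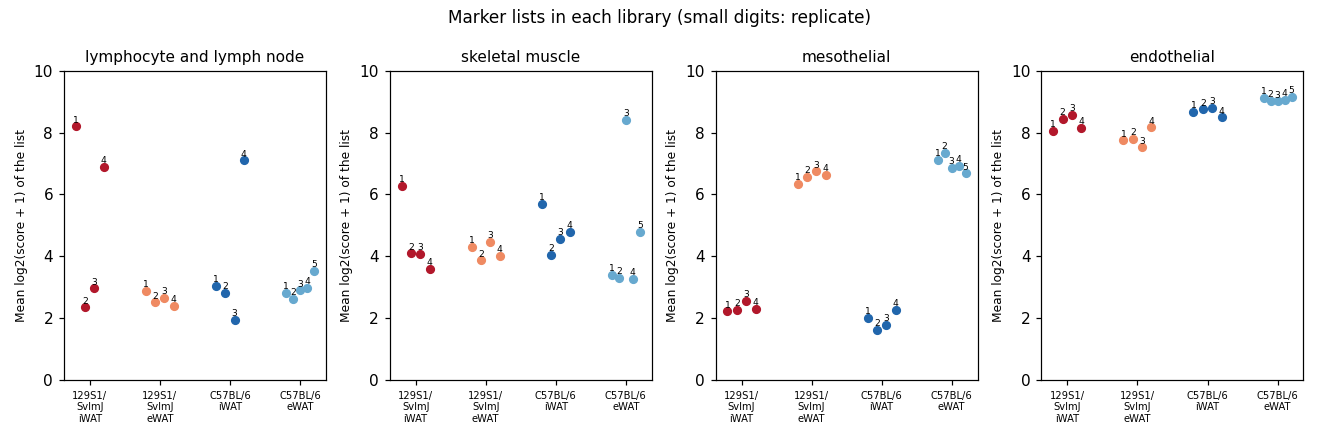
Mean log2(score + 1) of 4 marker lists in each of the 17 libraries, 1 point per library with its replicate number, in 129S1/SvImJ iWAT, 129S1/SvImJ eWAT, C57BL/6 iWAT and C57BL/6 eWAT. The lymphocyte list is high in 3 iWAT libraries (8.20 and 6.90 in 129S1/SvImJ replicates 1 and 4, 7.10 in C57BL/6 replicate 4), the muscle list in C57BL/6 eWAT replicate 3 (8.41), and the mesothelial list in all 9 eWAT libraries.

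limma called 727 of the 12555 genes (5.79%) in the interaction at an adjusted p under 0.05, 309 higher (2.46%) and 418 lower (3.33%). The depot difference alone was called for 417 genes (3.32%) in 129S1/SvImJ, 144 higher in iWAT (1.15%) and 273 lower (2.17%). Leaving out 1 library moved that count over 232 to 874, the lowest without 129S1/SvImJ iWAT replicate 4 and the highest without its replicate 2. In C57BL/6 the depot difference was called for 2911 genes (23.2%), 1317 higher in iWAT (10.5%) and 1594 lower (12.7%), and for 2216 to 3447 without 1 library. The strain difference alone was called in iWAT for 1446 genes (11.5%), 621 higher in 129S1/SvImJ (4.95%) and 825 lower (6.57%). In eWAT it was called for 2876 genes (22.9%), 1500 higher (11.9%) and 1376 lower (11%). These 5 comparisons share their libraries. Of the 309 genes with a higher interaction, 249 were lower in iWAT than in eWAT in C57BL/6 and not called between the depots in 129S1/SvImJ. Another 25 were higher in iWAT in 129S1/SvImJ without a call in C57BL/6, and 6 were called in opposite directions in the strains. Of the 418 genes with a lower interaction, 347 were higher in iWAT than in eWAT in C57BL/6 and not called in 129S1/SvImJ. A further 22 were lower in iWAT in 129S1/SvImJ alone, and 5 were called in opposite directions. The median depot difference of the 309 genes was 0.23 on the log2 scale in 129S1/SvImJ and -0.70 in C57BL/6, and that of the 418 genes was -0.23 and 0.73. The fitted depot difference was the larger in C57BL/6 for 257 of the 309 and 359 of the 418 genes.

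**Figure D2:**
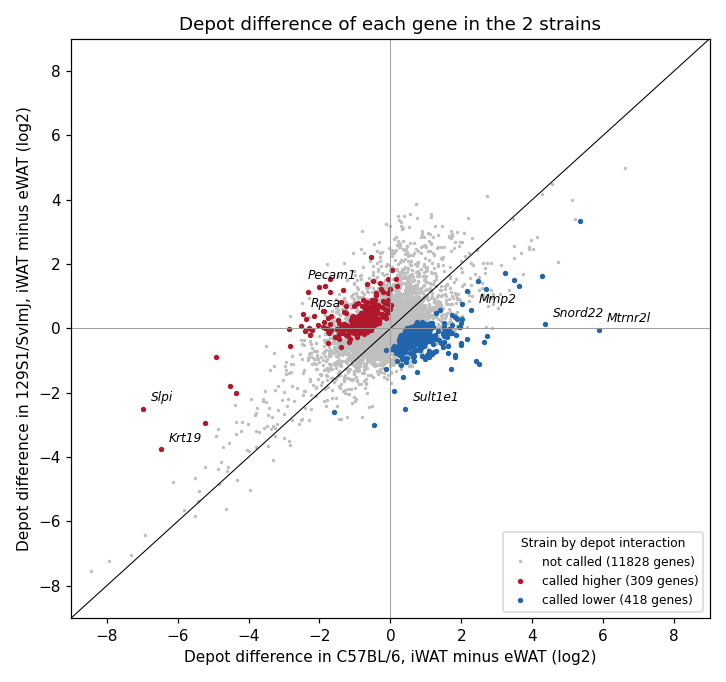
Depot difference (iWAT minus eWAT, log2 of score + 1) of each tested gene in 129S1/SvImJ (vertical) against C57BL/6 (horizontal), with genes called higher (309) and lower (418) in the interaction in colour and the line of equal differences. Most coloured genes spread along the C57BL/6 axis and stay near 0 on the 129S1/SvImJ axis, while Slpi, Krt19 and Sult1e1 lie away from it.

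The group that stood apart was most often C57BL/6 eWAT. Its 5 libraries were above all other 12 for 131 of the 309 genes with a higher interaction and below all other 12 for 156 of the 418 with a lower one. Among all genes tested, 4.04% had C57BL/6 eWAT above and 3.38% had it below every other library. C57BL/6 iWAT was below all others for 41 of the 309 (1.14% of all genes) and above all others for 66 of the 418 (1.59%). 129S1/SvImJ eWAT was below all others for 16 of the 309 (0.908%) and above all others for 20 of the 418 (1.35%). 129S1/SvImJ iWAT was below all others for 8 of the 418 genes (0.374%) and above all others for 1 gene of each set (0.119%). The number of calls depended on single libraries. Leaving out each library in turn gave 144 to 493 higher and 249 to 687 lower calls, with the lowest counts without C57BL/6 eWAT replicate 5 and the highest without C57BL/6 iWAT replicate 4, and 125 of the 309 and 220 of the 418 genes were called in all 17 of these fits.

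Matrix genes were among those with a lower interaction. Of 28 collagen and matrix genes, 6 were lower and 0 higher, with a median interaction of -0.39 against 0 over all genes tested. Of all genes tested, 3.33% were lower and 2.46% higher. In C57BL/6, 14 of the 28 were higher in iWAT than in eWAT and 1 was lower (median 0.44), and in 129S1/SvImJ 5 were higher and 3 lower (median 0.11). Over all genes tested, 10.5% were higher and 12.7% lower in iWAT in C57BL/6, and 1.15% and 2.17% in 129S1/SvImJ. In bulk tissue, a difference in the number of cells of a type and a difference in RNA per cell cannot be told apart. Mmp2 encodes a secreted gelatinase that cuts basement membrane collagen. Mmp2 had scores of 593, 889, 1065 and 834 in 129S1/SvImJ iWAT and 598, 640, 440 and 595 in 129S1/SvImJ eWAT. C57BL/6 iWAT had 1097, 921, 1063 and 1063, and C57BL/6 eWAT had 214, 176, 263, 221 and 195. C57BL/6 eWAT was below every other library, and the depots overlapped in 129S1/SvImJ. The interaction was -1.73 ± 0.23, adjusted p = 0.000611, with depot differences of 0.56 in 129S1/SvImJ (adjusted p = 0.0752) and 2.28 in C57BL/6 (adjusted p = 1.16e-08). Thrombospondin 2, a matricellular protein encoded by Thbs2, had an interaction of -1.97 ± 0.39, adjusted p = 0.00843. Thbs2 ranged over 399 to 1157 in 129S1/SvImJ iWAT, 828 to 1948 in 129S1/SvImJ eWAT, 542 to 848 in C57BL/6 iWAT and 282 to 419 in C57BL/6 eWAT, so that C57BL/6 eWAT overlapped 1 library of 129S1/SvImJ iWAT. Timp2, an inhibitor of matrix metalloproteinases, had -1.05 ± 0.19, adjusted p = 0.00506, and it was lower in iWAT in 129S1/SvImJ (depot difference -0.54) and higher in iWAT in C57BL/6 (0.51), both called.

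**Figure D3:**
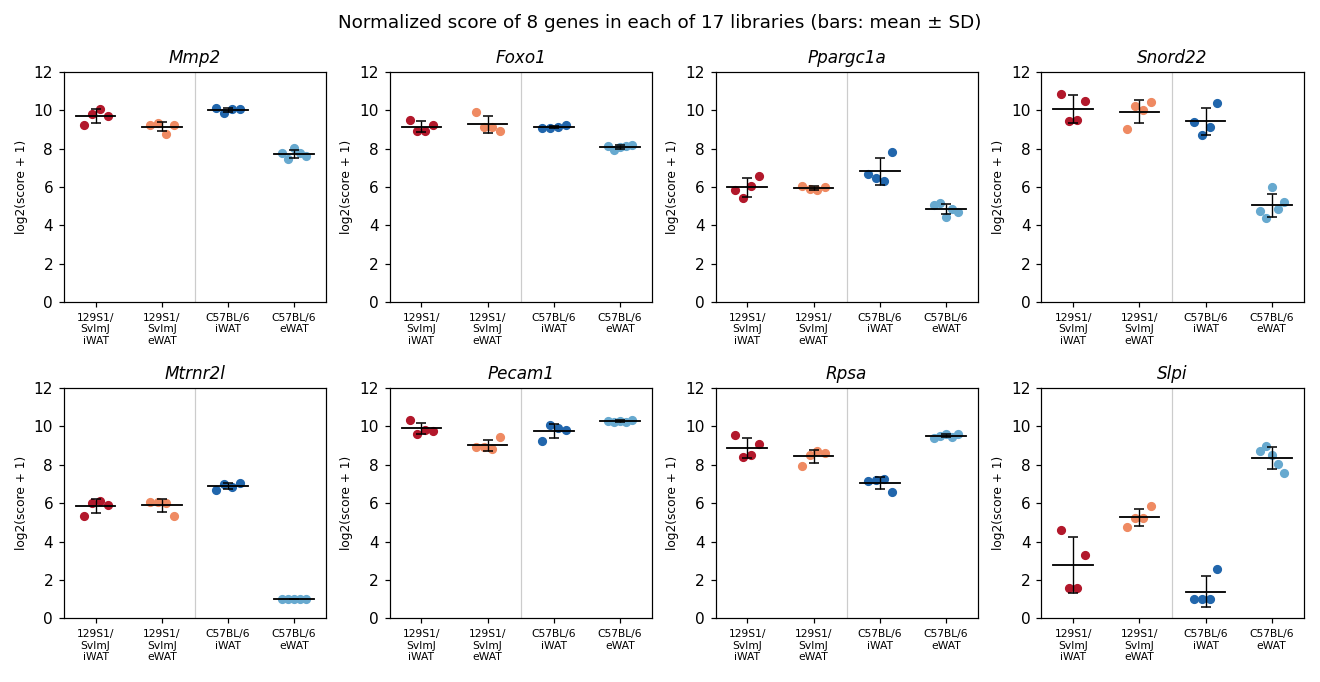
Score (log2 of score + 1) of 8 genes in each of the 17 libraries, with the mean and SD of each group, in 129S1/SvImJ iWAT, 129S1/SvImJ eWAT, C57BL/6 iWAT and C57BL/6 eWAT. C57BL/6 eWAT is the lowest group for Mmp2, Foxo1, Ppargc1a, Snord22 and Mtrnr2l and the highest for Pecam1, Rpsa and Slpi.

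In the insulin pathway, the receptor passes its signal through insulin receptor substrates and the kinase AKT, which restrains the transcription factor FOXO1 and the kinase GSK3B. Of 20 genes for insulin signalling and glucose uptake, 4 had a lower interaction and 0 a higher one (median -0.24). Over all genes tested, these shares were 3.33% and 2.46%. Foxo1 had scores of 710, 491, 481 and 609 in 129S1/SvImJ iWAT and 950, 555, 559 and 477 in 129S1/SvImJ eWAT. The C57BL/6 scores were 538, 546, 548 and 593 in iWAT and 277, 241, 266, 279 and 288 in eWAT. The C57BL/6 eWAT libraries were below all other libraries, and the other 3 groups overlapped. The interaction of Foxo1 was -1.16 ± 0.23, adjusted p = 0.00945, and its strain difference was 0.02 in iWAT (adjusted p = 0.944) and 1.18 in eWAT (adjusted p = 5.55e-05). Irs1, the first of the substrates, had scores of 718, 849, 1043 and 1127 in 129S1/SvImJ iWAT and 1071, 953, 1168 and 1136 in 129S1/SvImJ eWAT. In C57BL/6 it had 1538, 1883, 1100 and 1368 in iWAT and 657, 922, 755, 906 and 640 in eWAT. The C57BL/6 depots did not overlap and the 129S1/SvImJ depots did, and the interaction was -1.14 ± 0.24, adjusted p = 0.0108. Gsk3b was lower by the same contrast (-0.82 ± 0.19, adjusted p = 0.018), with C57BL/6 eWAT (547 to 623) below every other library (687 to 1209), and this call was lost without the 3 iWAT libraries with high lymphocyte sums and C57BL/6 eWAT replicate 3 (-0.71, adjusted p = 0.0595). The fourth gene was Pde3b, the phosphodiesterase through which insulin restrains lipolysis (-0.77 ± 0.21, adjusted p = 0.0398), which falls outside the rule for named genes and was added after its value was seen. Its call was lost in 13 of the 17 fits without 1 library (largest adjusted p = 0.0845, without 129S1/SvImJ eWAT replicate 3).

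Of 21 thermogenic genes, 2 were called in the interaction. In C57BL/6, 10 of the 21 were higher in iWAT and 0 lower (median 1.48), and in 129S1/SvImJ 2 were higher and 0 lower (median 0.51). Among all genes tested, 10.5% were higher in iWAT in C57BL/6 and 1.15% in 129S1/SvImJ. The mean log2 level of the full list of 24 was 6.27, 5.11, 4.83 and 7.62 in C57BL/6 iWAT and 4.40 to 4.67 in C57BL/6 eWAT. It was 5.19, 5.46, 5.50 and 7.14 in 129S1/SvImJ iWAT and 4.98 to 5.25 in 129S1/SvImJ eWAT. Replicate 4 was thus the highest in the iWAT of each strain. The interaction was lower for Ppargc1a and Ebf2 and higher for none, with a list median of -0.64. Over all genes tested it was lower for 3.33% and higher for 2.46%. Ppargc1a encodes the coactivator PGC-1alpha of mitochondrial biogenesis. Ppargc1a had scores of 57, 42, 65 and 94 in 129S1/SvImJ iWAT and 65, 58, 56 and 64 in 129S1/SvImJ eWAT. Those in C57BL/6 were 102, 86, 77 and 227 in iWAT and 32, 35, 21, 28 and 25 in eWAT. C57BL/6 eWAT was below every other library and C57BL/6 iWAT replicate 4 was the highest. The interaction was -1.94 ± 0.41, adjusted p = 0.011, with depot differences of 0.03 in 129S1/SvImJ (adjusted p = 0.971) and 1.97 in C57BL/6 (adjusted p = 9.81e-05). With a pseudocount of 50 it was -1.04. Ebf2, a transcription factor of brown-like adipocyte precursors, had -1.15 ± 0.27, adjusted p = 0.0178 and was highest in 129S1/SvImJ eWAT (225 to 352), overlapping C57BL/6 iWAT (255 to 295). Ucp1, the uncoupling protein of brown fat, was not called in the interaction. Ucp1 had scores of 86, 68, 42 and 2392 in 129S1/SvImJ iWAT and 22, 32, 40 and 62 in 129S1/SvImJ eWAT. In C57BL/6 they were 156, 1, 11 and 2108 in iWAT and 1 in every library in eWAT. Replicate 4 of each strain's iWAT held most of the signal, and those libraries also had high lymphocyte sums. The library with the highest lymphocyte sum, 129S1/SvImJ iWAT replicate 1 (12818), had a Ucp1 score of 86. The interaction of Ucp1 was -2.66 (95% interval -7.00 to 1.69, adjusted p = 0.467). Cidea, a lipid droplet protein of brown-like adipocytes, was likewise high in replicate 4 of 129S1/SvImJ iWAT (1744, others 337 to 398) and of C57BL/6 iWAT (2118, others 167 to 302), and its interaction was -2.05 (95% interval -3.90 to -0.20, adjusted p = 0.173). Without the 3 iWAT libraries with high lymphocyte sums it was -1.74 (adjusted p = 0.031).

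Of 39 respiratory chain and ATP synthase genes, 1 was lower and 0 higher (median 0.16), and of 22 fatty acid oxidation genes 1 was lower and 0 higher (median -0.21). Of 19 citrate cycle genes none was called in the interaction (median -0.20), against 5.79% of all genes tested. Cox5b, a subunit of cytochrome c oxidase, had an interaction of -1.63 ± 0.31, adjusted p = 0.00582, and its C57BL/6 eWAT scores (38 to 50) lay below all other libraries (58 to 154); with a pseudocount of 50 it was -1.0. Etfa, the alpha subunit of the flavoprotein that takes electrons from fatty acid oxidation, had -1.49 ± 0.27, adjusted p = 0.00485. Etfa ranged over 298 to 633 in 129S1/SvImJ iWAT, 694 to 930 in 129S1/SvImJ eWAT, 474 to 773 in C57BL/6 iWAT and 298 to 330 in C57BL/6 eWAT. In branched-chain amino acid breakdown, with 18 genes tested (median -0.23), 2 subunits of the same dehydrogenase complex went opposite ways. Bckdha had 1.04 ± 0.27, adjusted p = 0.0344 and Dbt had -0.85 ± 0.20, adjusted p = 0.0198. The Bckdha call was lost in 8 of the 17 fits without 1 library (largest adjusted p = 0.0692, without 129S1/SvImJ iWAT replicate 4) and without the filter on low values (adjusted p = 0.0785). The Dbt call was lost without the 3 iWAT libraries with high lymphocyte sums and the muscle-high C57BL/6 eWAT replicate 3 (-0.77, adjusted p = 0.0542). Nnt, the mitochondrial transhydrogenase, was not called in the interaction (-0.46 (95% interval -0.92 to -0.01, adjusted p = 0.209)) and was higher in 129S1/SvImJ in both depots (0.50 in iWAT (adjusted p = 0.0475) and 0.96 in eWAT (adjusted p = 0.000189)).

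Of 24 genes of adipocyte identity and lipid storage, 1 had a higher interaction and 0 a lower one (median 0.12), against 5.79% called in either direction among all genes tested. Cidec, which enlarges lipid droplets, had 0.90 ± 0.24, adjusted p = 0.0367, with C57BL/6 eWAT (27671 to 28615) above all other libraries (11421 to 22941). Its call was lost in 12 of the 17 fits without 1 library (largest adjusted p = 0.066, without C57BL/6 iWAT replicate 2). The adipocyte regulator Pparg had an interaction of 0.11 (95% interval -0.40 to 0.62, adjusted p = 0.822), and Adipoq, the adiponectin gene, -0.08 (95% interval -0.49 to 0.33, adjusted p = 0.842). The fatty acid carrier Fabp4 had 0.17 (95% interval -0.30 to 0.64, adjusted p = 0.686) and the fatty acid receptor Cd36 -0.24 (95% interval -0.57 to 0.09, adjusted p = 0.387). The leptin gene Lep had 0.13 (95% interval -0.89 to 1.16, adjusted p = 0.895). These intervals span 0, and leaving out single libraries turned the sign of Pparg, Adipoq and Lep. Among 17 adipokines and secreted fat products, 0 were called (median 0.14).

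De novo lipogenesis builds fatty acids from acetyl-CoA, under the transcription factor SREBP1 encoded by Srebf1. Of 20 such genes 0 were called in the interaction (median 0.26), although strains differed in each depot. In iWAT 10 were lower and 0 higher in 129S1/SvImJ (median -0.98), and in eWAT 15 were lower and 0 higher (median -1.35). Over all genes tested, 6.57% were lower and 4.95% higher in iWAT, and 11% lower and 11.9% higher in eWAT. Fasn, fatty acid synthase, had scores of 34576, 16663, 29720 and 82358 in 129S1/SvImJ iWAT and 19361, 25245, 25245 and 8365 in 129S1/SvImJ eWAT. In C57BL/6 it had 67869, 67869, 82358 and 67869 in iWAT and 58778, 82358, 67869, 67869 and 82358 in eWAT. The strains overlapped in iWAT through 129S1/SvImJ replicate 4 and not in eWAT, and the interaction was 0.94 (95% interval -0.13 to 2.02, adjusted p = 0.283). ATP citrate lyase, Acly, had 0.86 (95% interval -0.32 to 2.05, adjusted p = 0.382), and Srebf1 0.79 (95% interval 0.13 to 1.46, adjusted p = 0.147). Cholesterol synthesis and uptake also had 0 of 20 called (median 0.08).

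Endothelial genes had the opposite direction to matrix genes. Of 17 endothelial genes, 6 had a higher interaction and 0 a lower one (median 0.75), against 2.46% higher and 3.33% lower among all genes tested. Their median depot difference was 0.40 in 129S1/SvImJ, where 4 were higher in iWAT and 0 lower, and -0.40 in C57BL/6, where 7 were lower in iWAT and 0 higher. Among all genes tested, 1.15% were higher in iWAT in 129S1/SvImJ and 12.7% lower in iWAT in C57BL/6. In eWAT all 17 were lower in 129S1/SvImJ (median -1.24, against 11% of all genes). In iWAT 5 were lower (median -0.37, against 6.57% of all genes). The summed score of the list was 6080 to 7989 in 129S1/SvImJ iWAT, 4110 to 5979 in 129S1/SvImJ eWAT, 8276 to 10734 in C57BL/6 iWAT and 11265 to 12550 in C57BL/6 eWAT, with no overlap between these groups. Pecam1 had scores of 1294, 793, 911 and 876 in 129S1/SvImJ iWAT and 491, 486, 447 and 700 in 129S1/SvImJ eWAT. C57BL/6 iWAT had 608, 1064, 958 and 915, and C57BL/6 eWAT had 1239, 1212, 1259, 1198 and 1283. Pecam1, the adhesion molecule CD31, was thus lowest in 129S1/SvImJ eWAT, which overlapped C57BL/6 iWAT through 1 library of each. Its interaction was 1.37 ± 0.24, adjusted p = 0.00434, with depot differences of 0.86 in 129S1/SvImJ (adjusted p = 0.00801) and -0.51 in C57BL/6 (adjusted p = 0.0336). Egfl7, a factor secreted by endothelial cells, had scores of 725 to 1037 in C57BL/6 eWAT, above all others, and an interaction of 1.70 ± 0.27, adjusted p = 0.00243. For Plvap, a protein of the diaphragms of endothelial pores, the depots differed in 129S1/SvImJ instead. Plvap had scores of 275, 162, 210 and 228 in 129S1/SvImJ iWAT and 79, 59, 73 and 126 in 129S1/SvImJ eWAT. The C57BL/6 scores were 175, 77, 159 and 150 in iWAT and 178, 157, 156, 159 and 177 in eWAT. The 129S1/SvImJ depots did not overlap and the C57BL/6 depots did, and the interaction was 1.70 ± 0.34, adjusted p = 0.00815. The receptors Kdr and Flt1 were not called (0.52 (95% interval 0.11 to 0.93, adjusted p = 0.124) and 0.44 (95% interval -0.09 to 0.96, adjusted p = 0.309)). Without the 3 iWAT libraries with high lymphocyte sums 12 of the 17 were called higher (median 0.98), Kdr (0.65, adjusted p = 0.0248) and Flt1 (0.78, adjusted p = 0.0241) included. In that fit the higher calls over all genes also rose, from 309 to 656.

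Genes of the mesothelial covering were lower in iWAT in both strains. Of 15 tested, 14 were lower in 129S1/SvImJ (median -4.72) and 14 in C57BL/6 (median -5.43), against 2.17% and 12.7% of all genes tested. In the interaction 2 of the 15 were higher and 0 lower (median 0.71), while a pseudocount of 50 gave 4 higher and a median of 0.14. In the main fit 2.46% of all genes tested were higher and 3.33% lower. Krt19 had scores of 3, 9, 12 and 4 in 129S1/SvImJ iWAT and 61, 94, 112 and 129 in 129S1/SvImJ eWAT. Those in C57BL/6 were 1, 1, 1 and 5 in iWAT and 256, 339, 196, 241 and 168 in eWAT. Krt19 encodes a keratin of simple epithelia. Every eWAT library was above every iWAT library, and C57BL/6 eWAT was above 129S1/SvImJ eWAT. The interaction was 2.72 ± 0.57, adjusted p = 0.0116. Krt18, another such keratin, stood at the floor in all of C57BL/6 iWAT, so its fitted interaction of 2.26 ± 0.61, adjusted p = 0.0369 depends on the pseudocount, and its call was lost in 10 of the 17 fits without 1 library. Slpi had scores of 23, 2, 2 and 9 in 129S1/SvImJ iWAT and 26, 37, 37 and 56 in 129S1/SvImJ eWAT. In C57BL/6 they were 1, 1, 1 and 5 in iWAT and 421, 498, 361, 266 and 189 in eWAT. Slpi, a secreted inhibitor of leukocyte proteases, had an interaction of 4.46 ± 0.78, adjusted p = 0.0041, and C57BL/6 eWAT was above every other library. With a pseudocount of 50 the interaction was 2.28 for Slpi and 1.08 for Krt19. Serpina3b, a serine protease inhibitor, was 38 to 88 in C57BL/6 eWAT against at most 12 elsewhere (adjusted p = 0.00171). Htra4, a secreted serine protease, was 5 to 16 in 129S1/SvImJ iWAT, 28 to 37 in 129S1/SvImJ eWAT, 1 in C57BL/6 iWAT and 37 to 60 in C57BL/6 eWAT (adjusted p = 0.0041). Both stood at the floor in all of C57BL/6 iWAT, so no size is given. Of the list for skin and glandular epithelium, 5 of 21 genes were tested and Krt18, which it shares with the mesothelial list, was the one called.

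Of 23 macrophage genes, 1 was higher and 1 lower (median -0.08), and of 16 genes of lipid-associated macrophages 3 were lower and 0 higher (median -0.07). Among all genes tested, 2.46% were higher and 3.33% lower. Spp1, the cytokine osteopontin, had scores of 6, 19, 22 and 13 in 129S1/SvImJ iWAT and 47, 33, 33 and 12 in 129S1/SvImJ eWAT. In C57BL/6 it had 15, 44, 31 and 17 in iWAT and 4, 6, 2, 3 and 5 in eWAT. C57BL/6 eWAT was lowest, level with 129S1/SvImJ iWAT replicate 1, and the interaction was -3.41 ± 0.68, adjusted p = 0.00875, a size that rests on low scores and was -0.80 with a pseudocount of 50. Of the lysosomal genes, the protease gene Ctsb had -0.75 ± 0.16, adjusted p = 0.0131, with C57BL/6 eWAT (7366 to 7975) below all others (10492 to 15870), and the tetraspanin Cd63 had -1.44 ± 0.28, adjusted p = 0.00687 (-0.94 without the 3 iWAT libraries with high lymphocyte sums). Trem2, the lipid-sensing receptor of these macrophages, was higher in 129S1/SvImJ in both depots (4.07 in iWAT (adjusted p = 0.000655) and 3.59 in eWAT (adjusted p = 0.000579)) and its interaction was 0.48 (95% interval -1.46 to 2.41, adjusted p = 0.788), a sign that turned with pseudocounts of 10 and 50. Lyz1, a lysozyme with the near-identical copy Lyz2, had 1.93 ± 0.46, adjusted p = 0.0198, with C57BL/6 iWAT (69 to 104) below all others. It was 1.28 without the 3 iWAT libraries with high lymphocyte sums, and its call was lost without the filter on low values (adjusted p = 0.061). Fcgr1, the high-affinity receptor for IgG, had -1.77 ± 0.49, adjusted p = 0.0422, a call lost in 13 of the 17 fits without 1 library and without the 3 iWAT libraries (adjusted p = 0.105). Of 24 lymphocyte genes 0 were called, with a median interaction of 2.31 in all libraries and -0.41 without the 3 iWAT libraries high in them.

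Of 29 interferon-response genes, 14 were lower and 1 higher in 129S1/SvImJ in iWAT, and 13 were lower and 1 higher in eWAT, with a median of -0.96 in each. Over all genes tested, 6.57% were lower and 4.95% higher in iWAT, and 11% lower and 11.9% higher in eWAT. In the interaction 1 of the 29 was lower and 0 higher (median -0.15), against 3.33% and 2.46% of all genes. Rtp4, an interferon-induced gene, was 117 to 146 in C57BL/6 iWAT, above all other libraries (17 to 55), and had -1.30 ± 0.35, adjusted p = 0.0385, a call lost in 9 of the 17 fits without 1 library and without the 3 iWAT libraries with high lymphocyte sums (-0.92, adjusted p = 0.123). Bst2, the antiviral protein tetherin, did not pass the test (-0.10 (95% interval -0.50 to 0.30, adjusted p = 0.778)), nor did the tripartite motif genes Trim12a (-0.17 (95% interval -1.06 to 0.71, adjusted p = 0.832)) and Trim30d (-0.28 (95% interval -1.41 to 0.85, adjusted p = 0.783)). Hal, histidine ammonia lyase (0.89 (95% interval -0.49 to 2.27, adjusted p = 0.44)), and the netrin receptor Unc5a (0.58 (95% interval -0.54 to 1.70, adjusted p = 0.545)), which also mark the strains, did not pass it either.

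Nerve and Schwann cell genes were higher in iWAT, in 3 of 9 in 129S1/SvImJ (median 0.85) and 6 of 9 in C57BL/6 (median 1.11). Over all genes tested, these shares were 1.15% and 10.5%. In the interaction 2 of the 9 were lower and 0 higher (median -1.02), against 3.33% and 2.46% of all genes tested. Cdh19, a cadherin of the Schwann cell lineage that is not on the list, had scores of 13, 40, 23 and 29 in 129S1/SvImJ iWAT and 8, 5, 8 and 8 in 129S1/SvImJ eWAT. In C57BL/6 it had 88, 141, 104 and 65 in iWAT and 5, 6, 5, 3 and 2 in eWAT. In each strain the iWAT libraries were above the eWAT libraries, and the interaction was -2.64 ± 0.53, adjusted p = 0.00945 (-1.04 with a pseudocount of 50). Pmp22, a myelin protein that fibroblasts also make, had -1.02 ± 0.29, adjusted p = 0.0457, a call lost in 14 of the 17 fits without 1 library. The summed score of the 18 genes on the full list was 1577 to 1981 in 129S1/SvImJ iWAT, 1443 to 1499 in 129S1/SvImJ eWAT, 1645 to 3211 in C57BL/6 iWAT and 1239 to 1357 in C57BL/6 eWAT. Its defining marker Sox10 was 2 to 10 in 129S1/SvImJ iWAT, 2 to 4 in 129S1/SvImJ eWAT, 5 to 31 in C57BL/6 iWAT and 1 to 3 in C57BL/6 eWAT. Whether nerve content has a part in these calls was not tested.

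Regulatory genes with a lower interaction included an immediate early gene, a clock output gene and a Wnt antagonist. Fosb had scores of 2, 2, 12 and 2 in 129S1/SvImJ iWAT and 13, 9, 4 and 10 in 129S1/SvImJ eWAT. C57BL/6 iWAT had 62, 61, 260 and 73, and C57BL/6 eWAT had 20, 18, 17, 18 and 8. Fosb, a subunit of the transcription factor AP-1, was highest in C57BL/6 iWAT, with no overlap, and replicate 3 of that group was the highest library. Its interaction was -3.61 ± 0.76, adjusted p = 0.011, and it was the one called among 22 immediate early genes (median -0.12). With a pseudocount of 50 it was -1.28, and with array weights its call was lost (adjusted p = 0.051). Hlf, a transcription factor driven by the clock, was the one called among 18 circadian genes (median -0.29), at -1.49 ± 0.32, adjusted p = 0.0131. Sult1e1 had scores of 19, 20, 30 and 16 in 129S1/SvImJ iWAT and 94, 91, 119 and 217 in 129S1/SvImJ eWAT. The C57BL/6 scores were 162, 134, 167 and 95 in iWAT and 98, 123, 139, 117 and 57 in eWAT. Sult1e1, the estrogen sulfotransferase, was lower in 129S1/SvImJ iWAT than in any other library and had -2.91 ± 0.42, adjusted p = 0.00137. Sfrp1, a secreted Wnt antagonist, was highest in 129S1/SvImJ eWAT (78 to 259), overlapping C57BL/6 iWAT (39 to 82), and it was the one called among 21 depot position and developmental transcription factor genes (-2.05 ± 0.47, adjusted p = 0.0183, list median -0.45), a call lost with array weights (adjusted p = 0.0528). Gria4, a glutamate receptor subunit, was 33 to 47 in 129S1/SvImJ eWAT, above all other libraries (1 to 27), and had -2.95 ± 0.64, adjusted p = 0.0136. Mxd3, a partner of MAX that represses transcription, had a higher interaction (2.83 ± 0.63, adjusted p = 0.0153), with 1 to 15 in C57BL/6 iWAT below all other libraries (29 to 67). A pseudocount of 50 gave -1.57 for Sult1e1, -1.17 for Sfrp1, -0.64 for Gria4 and 0.89 for Mxd3, all still called. No gene was called among 16 adipose progenitor genes (median -0.14), 19 cell cycle genes (0.76), 20 skeletal muscle genes (-0.08) or 8 erythroid genes (0.40).

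**Figure D4:**
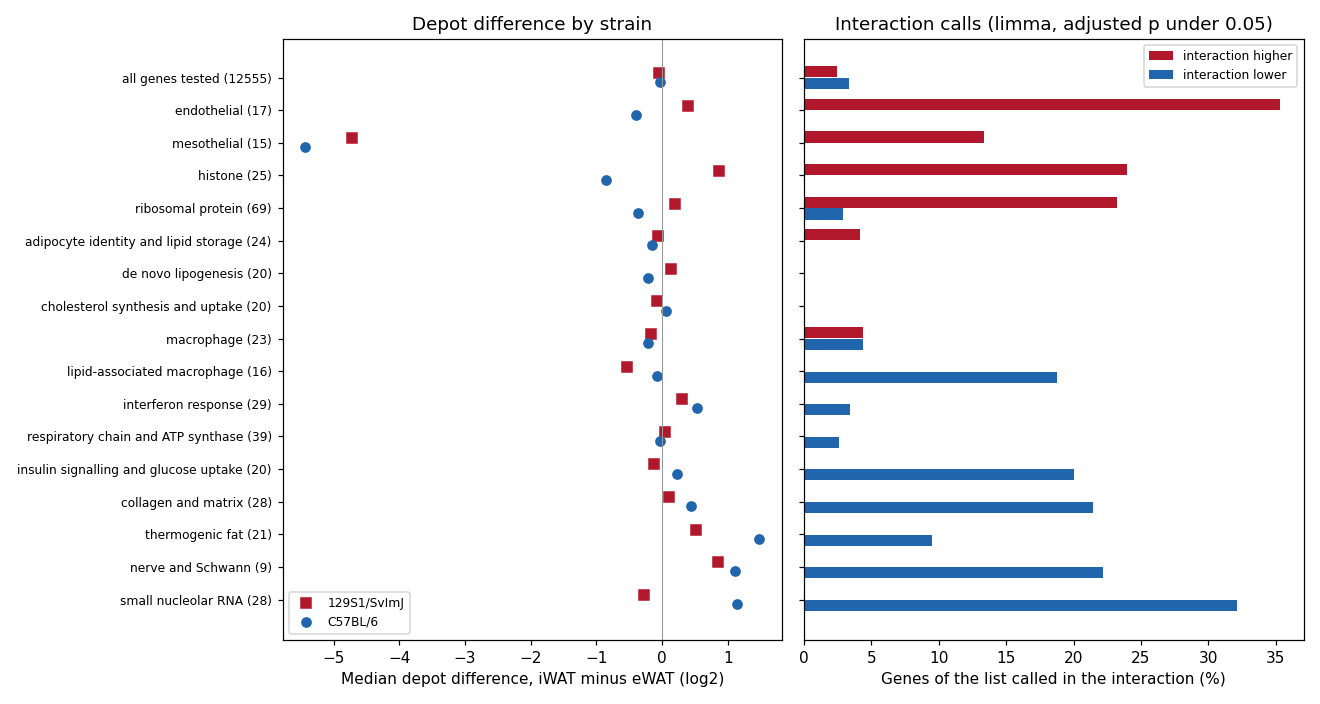
Left, median depot difference (iWAT minus eWAT, log2) of each gene list in 129S1/SvImJ and C57BL/6; right, percent of the list's tested genes called higher or lower in the interaction, with the number tested in brackets. The endothelial list has 6 of 17 higher, the small nucleolar RNA list 9 of 28 lower, and all genes tested 2.46% higher and 3.33% lower.

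Small nucleolar RNAs (snoRNAs), which guide chemical changes of ribosomal RNA and are mostly cut from introns of host genes, were grouped after their values were seen. Of 28 tested, 9 had a lower interaction and 0 a higher one (median -1.42), and with a pseudocount of 50 it was 5 lower (median -0.48). In the main fit 3.33% of all genes tested were lower and 2.46% higher. The strain difference was higher in 129S1/SvImJ for 24 of 28 in eWAT (median 2.39) and for 9 of 28 in iWAT (median 1.23). These shares over all genes tested were 11.9% in eWAT and 4.95% in iWAT. The sequences of 3 that were also named by the rule are shown. Their sequences are those of GENCODE M21 on GRCm38, whereas the files were made on mm9. Snord22 lies at chr19:8725866-8725991 (plus strand), Snora26 at chr5:74093530-74093650 (plus strand) and Snora24 at chr3:123507937-123508066 (minus strand). Capitals mark the last CTGA of Snord22, the D box of its class, and the last ACA of Snora26 and Snora24, the ACA box of theirs.
Snord22: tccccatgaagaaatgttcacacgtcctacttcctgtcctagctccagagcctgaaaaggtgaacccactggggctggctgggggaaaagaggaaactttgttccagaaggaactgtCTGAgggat
Snora26: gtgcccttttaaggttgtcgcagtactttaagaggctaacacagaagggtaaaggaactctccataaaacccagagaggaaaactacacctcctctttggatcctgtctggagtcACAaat
Snora24: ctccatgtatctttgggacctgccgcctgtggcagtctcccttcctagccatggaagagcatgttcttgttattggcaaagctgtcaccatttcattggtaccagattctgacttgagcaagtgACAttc

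Snord22 had scores of 1834, 692, 715 and 1437 in 129S1/SvImJ iWAT and 524, 1206, 1044 and 1367 in 129S1/SvImJ eWAT. Those in C57BL/6 were 676, 418, 563 and 1347 in iWAT and 26, 20, 62, 28 and 36 in eWAT. C57BL/6 eWAT was below every other library by a wide gap, and the other 3 groups overlapped. The interaction of Snord22 was -4.24 ± 0.56, adjusted p = 0.000611, with depot differences of 0.13 in 129S1/SvImJ (adjusted p = 0.891) and 4.37 in C57BL/6 (adjusted p = 2.92e-07). Snora26 had scores of 49, 60, 56 and 60 in 129S1/SvImJ iWAT and 41, 98, 78 and 100 in 129S1/SvImJ eWAT. In C57BL/6 it had 35, 10, 21 and 21 in iWAT and 2, 2, 5, 1 and 3 in eWAT, so both C57BL/6 groups were below both 129S1/SvImJ groups and eWAT the most (-3.05 ± 0.55, adjusted p = 0.00458). Snora68 (-2.98 ± 0.54, adjusted p = 0.00477) was 4 to 9 and Snora24 (-2.73 ± 0.60, adjusted p = 0.0149) was 4 to 6 in C57BL/6 eWAT, below all other libraries. With a pseudocount of 50 the interaction was -0.69 for Snora26, -0.92 for Snora68 and -0.70 for Snora24. The Snora24 call was lost without the 3 iWAT libraries with high lymphocyte sums and C57BL/6 eWAT replicate 3 (adjusted p = 0.0703). Host genes were measured as well. Of the 28, 21 lie in one of 19 tested host genes, of which 1 was higher and 1 lower in the interaction (median -0.16). Snord22 lies in Snhg1, whose interaction was -0.16 ± 0.32, adjusted p = 0.795. In the control diet eWAT libraries, made from other samples, 5 of 24 tested snoRNAs were lower in 129S1/SvImJ and 0 higher (median -0.47). Of all genes tested there, 15% were lower and 18.6% higher.

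Genes for ribosomal proteins and for histones were also grouped after their values were seen. Over all genes tested, the interaction was higher for 2.46% and lower for 3.33%. Of 69 ribosomal protein genes, 16 were higher and 2 lower (median 0.63), and of 25 histone genes 6 were higher and 0 lower (median 1.57). Without the 3 iWAT libraries with high lymphocyte sums these counts were 9 higher and 3 lower, and 4 higher. Both families have near-identical copies in the genome among which reads can be split, so their values are uncertain. Rpsa had scores of 741, 335, 361 and 549 in 129S1/SvImJ iWAT and 242, 361, 417 and 396 in 129S1/SvImJ eWAT. In C57BL/6 they were 143, 149, 150 and 95 in iWAT and 678, 733, 784, 706 and 767 in eWAT. Rpsa, a protein of the small subunit that is also a laminin receptor, was lowest in C57BL/6 iWAT, with no overlap, and had 2.90 ± 0.31, adjusted p = 8.12e-05. Its strain difference was 1.83 in iWAT (adjusted p = 3.25e-05) and -1.08 in eWAT (adjusted p = 0.00131). Rpl41 (2.66 ± 0.29), Rpl19 (2.54 ± 0.41) and Rpl21 (2.16 ± 0.31) were likewise below all other libraries in C57BL/6 iWAT (largest adjusted p = 0.00303). Of the histone H4 genes, Hist1h4c had 2.83 ± 0.59, adjusted p = 0.0109 and Hist1h4d 2.54 ± 0.59, adjusted p = 0.0183, with 129S1/SvImJ iWAT replicate 1 at 70 and 399, the highest of its group. The Hist1h4d call was lost without the 3 iWAT libraries with high lymphocyte sums (1.75, adjusted p = 0.0553), with array weights (1.44, adjusted p = 0.0761) and without the filter on low values (adjusted p = 0.0586). Hist1h4c was 1.17 and Rpl19 1.25 with a pseudocount of 50.

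The strain difference was called in both depots with opposite sign for 53 genes, 23 of the 309 and 30 of the 418. Of the genes already described, Rpsa, Rpl41, Rpl21, Rpl19, Krt19, Irs1 and Hlf were of this kind. Tbca had scores of 68, 115, 105 and 71 in 129S1/SvImJ iWAT and 101, 133, 133 and 114 in 129S1/SvImJ eWAT. C57BL/6 iWAT had 129, 126, 150 and 118, and C57BL/6 eWAT had 30, 31, 31, 34 and 36. Tbca, a chaperone of tubulin folding, was lowest in C57BL/6 eWAT, with no overlap, and had -2.42 ± 0.24, adjusted p = 6.37e-05 with strain differences of -0.57 in iWAT (adjusted p = 0.0451) and 1.85 in eWAT (adjusted p = 5.85e-07). A pseudocount of 50 gave -1.43 for Tbca and 1.28 for Igfbp3. Igfbp3 had scores of 220, 160, 110 and 161 in 129S1/SvImJ iWAT and 56, 50, 52 and 71 in 129S1/SvImJ eWAT. The C57BL/6 scores were 82, 93, 86 and 61 in iWAT and 94, 115, 129, 106 and 115 in eWAT. Igfbp3, which binds insulin-like growth factors in the circulation, was highest in 129S1/SvImJ iWAT, which overlapped C57BL/6 eWAT, and had 1.94 ± 0.27, adjusted p = 0.00107. The strain differences of Igfbp3 were 0.98 in iWAT (adjusted p = 0.00321) and -0.96 in eWAT (adjusted p = 0.00117). Ftl1, the ferritin light chain (1.73 ± 0.22, adjusted p = 0.000611), and Actg1, a cytoplasmic actin (1.85 ± 0.27, adjusted p = 0.00141, and 1.18 with a pseudocount of 50), were above all other libraries in C57BL/6 eWAT, and both have near-identical copies. Snx11, a sorting nexin, had 1.15 ± 0.17, adjusted p = 0.0018, with 129S1/SvImJ iWAT (134 to 147) above 129S1/SvImJ eWAT (90 to 105). Mtrnr2l had scores of 39, 63, 69 and 60 in 129S1/SvImJ iWAT and 67, 66, 64 and 40 in 129S1/SvImJ eWAT. Those in C57BL/6 were 102, 126, 113 and 133 in iWAT and 1 in every library in eWAT. Mtrnr2l is named for its likeness to the large mitochondrial ribosomal RNA, so reads can be shared with other copies. It stood at the floor in all of C57BL/6 eWAT (adjusted p = 1.3e-08), so no size is given. In eWAT of the series' control diet mice its scores averaged 29.8 ± 8.62 in 129S1/SvImJ and 58.5 ± 26.2 in C57BL/6 (SD, n = 4 each, log2 difference -0.88, adjusted p = 0.057).

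The eWAT component of the interaction was compared with 8 other eWAT libraries, 4 of 129S1/SvImJ and 4 of C57BL/6, from the control diet arm of the series' drug experiment. Those mice, labelled as low fat diet controls, started the diet at 6 weeks of age. The protocol of that experiment gives a switch at 16 weeks and sacrifice at 18 weeks. The 8 libraries were normalized separately, so no level is compared. There limma called 3915 of 11643 genes (33.6%), 2167 higher in 129S1/SvImJ (18.6%) and 1748 lower (15%). Of the 309 genes with a higher interaction, 218 were lower in 129S1/SvImJ eWAT in the 12w libraries, and 217 of these were tested on the control diet. There 65 were lower (30%, against 15% of all genes) and 35 higher (16.1%, against 18.6%) in 129S1/SvImJ, with a median of -0.13. Of the 418 genes with a lower interaction, 296 were higher in 129S1/SvImJ eWAT in the 12w libraries, and 284 of these were tested on the control diet. There 59 were higher (20.8%, near the 18.6% of all genes) and 15 lower (5.28%, against 15%), with a median of 0.09. Over all genes tested in both, the median was 0.04. Most eWAT strain differences behind the interaction were thus not called in the same direction in the other eWAT libraries. These genes were chosen by their calls in the 12w libraries, so smaller differences and fewer calls in other libraries can arise from that choice alone.

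Of the 17 endothelial genes, 6 were called in the interaction. On the control diet 14 of the 17 were lower in 129S1/SvImJ (median -0.73), against 15% of all genes tested there. The strain difference of Pecam1 there was -0.70 (adjusted p = 0.00445), and that of Egfl7 -0.43 (adjusted p = 0.0305). That of Plvap was 0, against -1.02 in the 12w eWAT libraries. Mmp2 (0.89, adjusted p = 0.00723), Cox5b (1.03, adjusted p = 0.00204) and Gria4 (2.09, adjusted p = 0.000777) were higher in 129S1/SvImJ there too. Foxo1 (-0.10, adjusted p = 0.461), Ppargc1a (0.01, adjusted p = 0.971), Irs1 (0.07, adjusted p = 0.849), Tbca (0.39, adjusted p = 0.108) and Thbs2 (-0.03, adjusted p = 0.964) did not pass the test. Rpsa was higher in 129S1/SvImJ on the control diet (0.49, adjusted p = 0.00278) and lower in the 12w eWAT libraries (-1.08). Etfa was lower on the control diet (-0.32, adjusted p = 0.0158) and higher in the 12w eWAT libraries (1.29). Lipogenic genes, lower in 15 of 20 in the 12w eWAT libraries, were higher in 7 of 20 and lower in 0 on the control diet (median 0.60). Of all genes tested on the control diet, 18.6% were higher and 15% lower. The labels do not say whether diet duration and age were the same in these sets of libraries, and the part of either in these values was not tested.

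**Figure D5:**
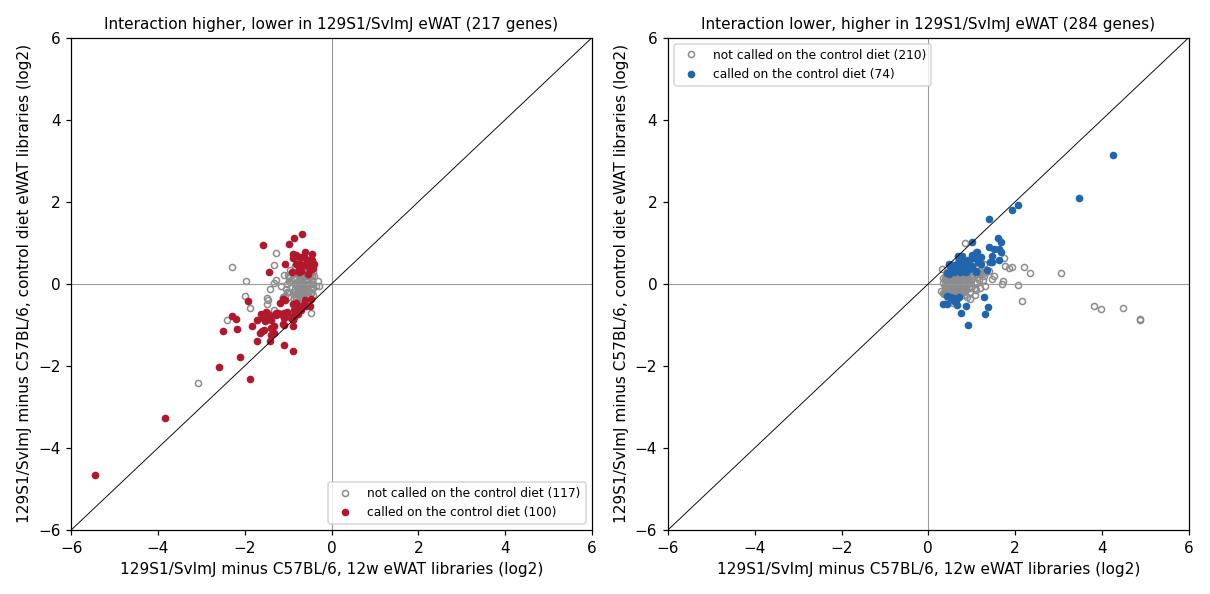
Strain difference in eWAT (129S1/SvImJ minus C57BL/6, log2) in the control diet libraries (vertical) against the 12w libraries (horizontal), for genes with a higher interaction that were lower in 129S1/SvImJ eWAT (left) and with a lower interaction that were higher there (right), with the line of equal differences. Of the 217 genes on the left 100 were called on the control diet, and of the 284 on the right 74. Most points lie closer to 0 on the vertical axis than on the line, and the genes were chosen by their calls in the 12w libraries.

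Promoters of the called genes were read for 4 motifs on both strands in the RefSeq promoter sequences of GRCm38.p6, which hold 8908 of the 12555 genes, 220 of those with a higher and 293 of those with a lower interaction. CCAAT, the motif of NF-Y, stood in 34.5% of the 220 and 35.8% of the 293 promoters, against 38.5% of all. The E-box CACGTG stood in 9.09% and 10.2%, against 10.4%. The SREBP motif TCACNCCAC stood in 0.909% and 1.02%, against 0.977%, and the interferon-stimulated response element in 2.73% and 2.39%, against 3.05%. These shares are a description. The promoters of Foxo1, at chr3:52268087-52268386 (plus strand), and Slpi, at chr2:164356458-164356757 (minus strand), are shown as a gene of each direction with matches. Capitals mark CCAAT on either strand (written ATTGG on the other) in Foxo1, and CACGTG in Slpi.
Foxo1: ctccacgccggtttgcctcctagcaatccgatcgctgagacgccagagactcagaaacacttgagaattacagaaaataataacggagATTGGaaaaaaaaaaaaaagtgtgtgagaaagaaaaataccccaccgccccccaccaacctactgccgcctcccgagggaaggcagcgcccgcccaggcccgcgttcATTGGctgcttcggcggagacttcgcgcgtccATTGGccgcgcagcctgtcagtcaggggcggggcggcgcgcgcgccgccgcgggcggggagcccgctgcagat
Slpi: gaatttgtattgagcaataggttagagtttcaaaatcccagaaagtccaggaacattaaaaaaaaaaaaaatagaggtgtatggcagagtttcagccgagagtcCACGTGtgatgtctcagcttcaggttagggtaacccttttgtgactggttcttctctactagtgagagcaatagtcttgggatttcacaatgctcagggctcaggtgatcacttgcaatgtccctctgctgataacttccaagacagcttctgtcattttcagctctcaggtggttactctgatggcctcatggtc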

How the data were processed

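Per the labels' protocols, Trizol and RNeasy were used for RNA, TruSeq for libraries and the Genome Analyzer for sequencing. The submitters' processing notes name HOMER and mm9. The sources used here do not state how reads were counted and normalized. The deposited tables give each of 28644 transcripts a score per library, a whole number with a floor of 1. All 17 libraries share the highest score of 267214, with totals of 6757422 to 6769165, so the scores were normalized by the authors, are not counts, and allow no counting interval.

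For each of 22869 symbols the transcript with the highest total was kept. limma 3.58.1 in R 4.3.3, with trend and robust settings, was run on log2(score + 1) with 1 mean per group over the 12555 genes with a mean of 20 or more in a group. All p-values are two-sided with Benjamini-Hochberg adjustment over all genes tested, called under 0.05. The ± after a difference is its SE. The control diet libraries were fitted on their own. The fits were tested on simulated data. Differences between low scores depend on the pseudocount, which can understate the change of low genes. In the iWAT group with the coarser scores, the lowest score above the floor was 5 to 11. A transcript at the floor there can also make a change look larger than it was, so the direction of the error is unknown for such genes.

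The genes and the 27 gene lists were chosen with earlier results of these data known. Named were the 10 largest interactions in each direction among genes called in all 17 fits without 1 library, up to 3 called members per list, up to 10 genes with opposite strain differences in the depots, and 20 fixed genes, which gave 72 genes. Some of them are not reported here. The alternatives were other filters, pseudocounts, scalings, transcript summing, weights, a replicate block and leaving out libraries. Same-numbered replicates were checked for pairing and no pairing was used. The chow, F1, rosiglitazone and nascent RNA samples were not used here.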

Additional observations from a re-analysis of the deposited data

Results flagged for a closer look

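Among 73 genes looked at in 4 groups each (292 gene and group pairs), 1 library lay far from the rest of its group in 31 cases, for 24 genes. A library counted as far when its gap to the next exceeded 0.829 of the range in groups of 4, or 0.71 in the group of 5. These cut-offs are meant for continuous values, and the scores are whole numbers with ties and a floor, so no chance rate is given. In 129S1/SvImJ iWAT, replicate 1 was apart for Ebf2 (112, others 215 to 229). In 129S1/SvImJ iWAT, replicate 2 was apart for Snx11 (147, others 134 to 135). In 129S1/SvImJ iWAT, replicate 3 was apart for Fosb (12, others 2). In 129S1/SvImJ iWAT, replicate 4 was apart for Acly (6408, others 1298 to 1994), Cidea (1744, others 337 to 398), Trim12a (2, others 1) and Ucp1 (2392, others 42 to 86). In 129S1/SvImJ eWAT, replicate 1 was apart for Bckdha (582, others 1074 to 1081), Ftl1 (1073, others 1866 to 1965), Gsk3b (1209, others 723 to 780) and Trim12a (1, others 2). In 129S1/SvImJ eWAT, replicate 2 was apart for Cdh19 (5, others 8). In 129S1/SvImJ eWAT, replicate 3 was apart for Pde3b (4878, others 3625 to 3812). In 129S1/SvImJ eWAT, replicate 4 was apart for Mtrnr2l (40, others 64 to 67). In C57BL/6 iWAT, replicate 1 was apart for Ebf2 (295, others 255 to 260). In C57BL/6 iWAT, replicate 2 was apart for Cox5b (86, others 143 to 154). In C57BL/6 iWAT, replicate 3 was apart for Fasn (82358, others 67869), Fosb (260, others 61 to 73) and Hal (11, others 1). In C57BL/6 iWAT, replicate 4 was apart for Cidea (2118, others 167 to 302), Krt19 (5, others 1), Ppargc1a (227, others 77 to 102), Rpsa (95, others 143 to 150), Slpi (5, others 1) and Ucp1 (2108, others 1 to 156). In C57BL/6 eWAT, replicate 2 was apart for Rtp4 (55, others 34 to 39) and Snora24 (4, others 6). In C57BL/6 eWAT, replicate 3 was apart for Adipoq (19917, others 21259) and Gsk3b (547, others 602 to 623). In C57BL/6 eWAT, replicate 5 was apart for Fabp4 (40624, others 45057) and Fosb (8, others 17 to 20). Some of these cases are 1 step of the score scale. The lowest score above the floor was 5 in C57BL/6 iWAT replicate 4, the value of Krt19 and Slpi there. It was 11 in replicate 3, the value of Hal there. Where the others of a group are tied, any different score counts as apart.

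The strain difference itself differed between the depots, by the interaction test, in 309 genes in the higher and 418 in the lower direction. In 53 genes it was called in both depots with opposite sign.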

How the results depend on the processing

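With array weights there were 527 higher interactions, 804 depot calls in 129S1/SvImJ and 5758 strain calls in eWAT. Without the 3 iWAT libraries with high lymphocyte sums, an alternative chosen after seeing the data, there were 656 higher and 613 lower interactions, and without C57BL/6 eWAT replicate 3 as well 394 and 384, and 256 depot calls in 129S1/SvImJ. With the replicate number as a block there were 101 higher and 168 lower interactions. No pair of groups had all same-numbered libraries correlated over 0.1, and no pairing was used. This check cannot show whether libraries of different groups share an animal. A correlation over 0.1 was found for 3 of 4 numbers between 129S1/SvImJ iWAT and C57BL/6 iWAT (-0.19, 0.23, 0.35 and 0.58). It was found for 1 of the other 20 pairs, and for 0 of 4 on the control diet. Under the block the calls of Dbt (adjusted p = 0.0552), Lyz1 (0.0539), Hist1h4d (0.058), Gsk3b (0.0512), Gria4 (0.055), Sfrp1 (0.0655) and Snora24 (0.0539) were lost, among others. The other filters, pseudocounts, scalings and limma settings kept all counts within 1.5 times.

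Leaving out 1 library gave 144 to 493 higher and 249 to 687 lower interactions. Higher calls numbered 183 without 129S1/SvImJ iWAT replicate 4, 164 and 177 without 129S1/SvImJ eWAT replicates 1 and 3, 493 without C57BL/6 iWAT replicate 4, and 157, 170, 157, 193 and 144 without C57BL/6 eWAT replicates 1 to 5 in turn. Lower calls numbered 272 without 129S1/SvImJ eWAT replicate 3, 687 without C57BL/6 iWAT replicate 4, and 268, 259 and 249 without C57BL/6 eWAT replicates 1, 3 and 5. Depot calls in 129S1/SvImJ ranged from 232 to 874, with 874, 699 and 232 without iWAT replicates 2, 3 and 4 and 256 and 275 without eWAT replicates 3 and 4. The cause was not tested.

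The sign turned only for genes that were not called. Adipoq gave 0.01, 0.03 and 0.01, Lep -0.04, -0.07, -0.06 and -0.18 (range -0.18 to 0.43), and Pparg -0.01 and -0.06 when libraries were left out. Trem2 gave -0.27 and -0.68 with pseudocounts of 10 and 50 and -0.01 and -0.22 without single libraries (range -0.22 to 1.04). Trim12a gave 0.04 and 0.05 with those pseudocounts and 0.04 without C57BL/6 iWAT replicate 4 (range over libraries left out -0.35 to 0.04), and Trim30d 0.23 and 0.24 without the libraries high in lymphocyte or muscle genes.

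Of 309 higher and 418 lower genes, 299 and 405 were also called with a pseudocount of 50, and 249 and 336 without the 3 libraries. The coarse low end of the C57BL/6 iWAT scores limits all genes near the floor, and the unknown depth limits what can be said of any low value.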

Other observations

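C57BL/6 iWAT replicate 4 correlated at 0.936 with 129S1/SvImJ iWAT replicate 4 and at 0.908 with 129S1/SvImJ iWAT replicate 1, on log2(score + 1) over the genes tested, and at 0.853 to 0.89 with the other libraries of its own group. Within groups the correlation was 0.842 to 0.99. These 3 libraries are those with high lymphocyte sums, and the part of those sums in the correlations was not tested.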
